A study of Mus musculus with 10 samples.

Results

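A retained-intron transcript is an RNA of a gene that keeps sequence lying between 2 exons of the gene's other transcripts. Such transcripts were followed in 10 RNA sequencing libraries of mouse soleus, a slow-twitch calf muscle, and tibialis anterior (TA), its fast-twitch counterpart at the front of the lower leg. A transcript was a member when its Ensembl identifier, read without its version, had the biotype retained_intron in the GENCODE M21 annotation of GRCm38. The 4 listed transcripts of Cep295 were left out. This gave 9117 transcripts of 5820 genes, among 40359 listed transcripts that matched the annotation. GENCODE M21 holds 21848 transcripts of this biotype.

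Introns are removed from a primary transcript by the spliceosome, which reads short signals at both intron ends, nearly always GT at the start and AG at the end in the DNA. A transcript that keeps an intron often meets a stop codon in it, and many such RNAs stay in the nucleus or are degraded. Intron retention is known to change during muscle and nerve development, and genes of splicing factors themselves are well-known carriers. Some introns also hold the genes of small nucleolar RNAs (snoRNAs), which guide chemical changes of ribosomal RNA and are cut out of the host intron.

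All mice were wild type, and strain and age were not stated in the labels. Soleus was taken from males (3 libraries) and females (2 libraries), and so was TA. The numbers of the libraries appear to follow the mouse (see the processing summary), but no label says that each library is a separate animal, so p-values measure the spread between these libraries. Libraries held 726075 to 961237 counts on matched transcripts, of which 513984 to 696675 lay outside Gm20594 and Cep295, the 2 genes with the most counts. Summed slow-fibre markers (Myh7, Tnni1, Myl2, Tnnt1) ran from 2681 to 3486 CPM, the counts per 1000000 of the TMM-scaled library size, in the 5 soleus libraries and from 0 to 2.27 in TA. Summed fast-fibre markers (Myh4, Pvalb, Actn3, Mybpc2) ran from 63.9 to 953 CPM in soleus and from 19949 to 34879 in TA. The tissue labels thus matched the markers.

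The soleus library female 2 stood apart from the other soleus libraries and is described at the end. Comparisons of the muscles use the other 9 libraries, and the value with all 10 is given where it changes a call. Counts are listed in the order male 1, male 2, male 3 and female 1 for soleus, and male 1, male 2, male 3, female 1 and female 2 for TA.

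Members differ in how they keep introns. Of the 9117, 3081 run across at least 1 whole intron of a protein-coding transcript of their gene, 5999 only run into one from an exon, and 37 do neither. The listed members cross 5234 different introns with a median length of 396 bases, and 97.6% of these introns begin with GT and end with AG. Introns crossed by retained-intron transcripts with no count had a median length of 183 bases, and 98.1% had these ends. Introns that listed members also cross were not taken out of this set. The following stretches belong to transcripts on which the results turn, and they show what a read must hold to be told from the spliced RNA. The first 2 are whole short introns of Gapdh-213 (chr6:125162374-125162497, minus strand) and Tnni2-204 (chr7:142443412-142443551, plus strand), with 20 bases of coding exon on each side. The third is the last exon of Tnnt3-227 (chr7:142505288-142505491, plus strand), in which 12 coding bases run on into 192 intron bases. The next 3 show 30 coding bases and 60 intron bases at the edge where Mybpc1-203 (chr10:88523124-88523213, minus strand) leaves an intron and where Mettl21c-202 (chr1:44013562-44013651, minus strand) and Trio-209 (chr15:27821280-27821369, minus strand) enter one. Capitals mark the first 2 or last 2 bases of the intron, and sequences run 5′ to 3′ on the strand of the gene in GRCm38.
Gapdh-213: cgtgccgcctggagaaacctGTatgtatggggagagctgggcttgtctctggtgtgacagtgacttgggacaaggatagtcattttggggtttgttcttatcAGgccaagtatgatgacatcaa
Tnni2-204: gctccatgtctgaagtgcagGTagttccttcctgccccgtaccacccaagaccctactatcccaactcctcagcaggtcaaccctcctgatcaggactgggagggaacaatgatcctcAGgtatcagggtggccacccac
Tnnt3-227: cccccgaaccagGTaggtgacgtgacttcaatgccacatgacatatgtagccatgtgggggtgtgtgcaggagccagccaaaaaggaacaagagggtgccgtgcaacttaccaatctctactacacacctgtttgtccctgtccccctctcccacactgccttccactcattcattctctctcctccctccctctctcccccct
Mybpc1-203: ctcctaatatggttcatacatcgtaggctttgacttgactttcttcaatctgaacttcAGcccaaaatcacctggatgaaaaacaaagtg
Mettl21c-202: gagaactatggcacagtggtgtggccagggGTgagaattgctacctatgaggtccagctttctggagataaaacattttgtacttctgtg
Trio-209: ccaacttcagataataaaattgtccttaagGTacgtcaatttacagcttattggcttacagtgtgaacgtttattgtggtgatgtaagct
Every intron edge in this set has the usual GT or AG.

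Listing followed how much sequence a transcript has to itself. A 31-mer is a run of 31 bases, and a 31-mer of its own is one found in no other annotated transcript. Of annotated retained-intron transcripts with no such 31-mer 2.91% had a count in any library, against 15.6% of those with 1 to 100 and 52.0% of those with over 100. Most members were close to the detection limit, since 7989 had a mean under 1 count over the 9 libraries, 72 a mean of at least 10 and 15 a mean of at least 50. The 10 with the highest mean held 28.4% of all member counts. Of annotated protein-coding transcripts of the genes that have a retained-intron transcript, 2.79% with no own 31-mer had a count, 28.0% of those with 1 to 100 and 67.1% of those with over 100. A percentage within a gene is therefore given here as a share of assignable counts and not as the share of RNA molecules that keep the intron.

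The first comparison asked whether the slow and the fast muscle differ in the total share of counts on retained introns. Members took 1.48%, 1.34%, 1.13% and 1.31% of the counts outside Gm20594 and Cep295 in soleus and 1.22%, 1.09%, 1.36%, 1.25% and 1.23% in TA. The muscles overlapped, with a mean of 1.32% ± 0.14 (SD, n = 4) in soleus and 1.23% ± 0.097 (SD, n = 5) in TA. The difference of 0.086 percentage points did not pass the exact two-sided permutation test (p = 0.317, adjusted over 2 tests 0.405, smallest possible p 0.00794). Within the 4721 genes that had counts on both kinds, members took 4.41% ± 0.48 (SD, n = 4) of the retained-intron and protein-coding counts in soleus and 4.68% ± 0.46 (SD, n = 5) in TA (exact permutation p = 0.405). With all 10 libraries this difference turned from -0.27 to 1.08 percentage points (exact permutation p = 0.810), with soleus female 2 at 11.2%. Between 2127 and 2784 members were listed in each of the 9 libraries, and 280 were listed in all 9.

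**Figure D1:**
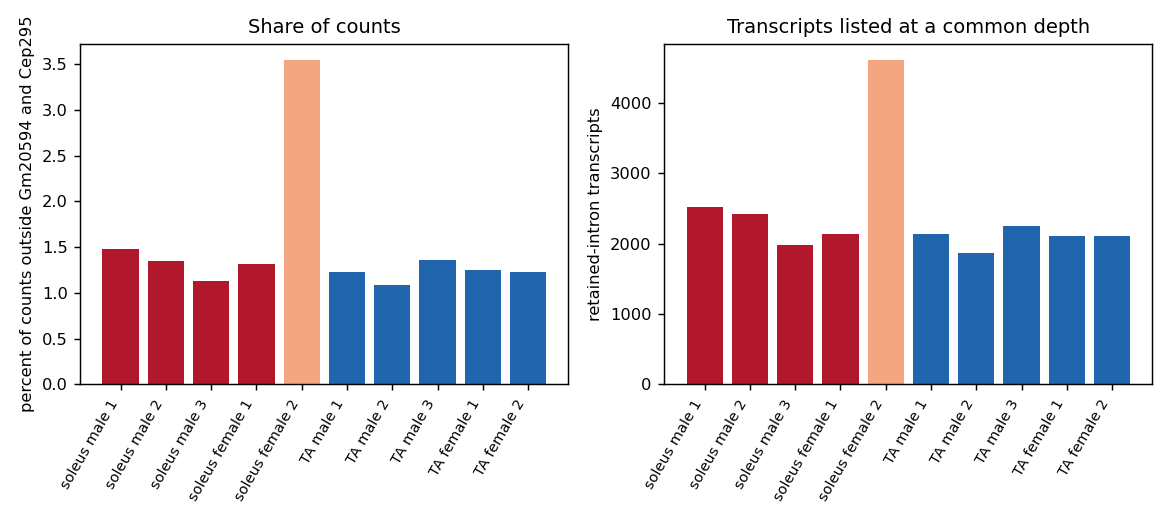
Retained-intron transcripts by library. Left, percent of counts outside Gm20594 and Cep295 that fell on members, and right, number of members expected at a common depth of 513984 counts, for soleus (dark red), soleus female 2 (light) and TA (blue). One bar is 1 library. The other libraries lie between 1.09% and 1.48%, and soleus female 2 lies at 3.54%.

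Individual transcripts did differ between the muscles. In the edgeR fit of 4197 transcripts of all kinds, 88 members had enough counts to be tested. The edgeR quasi-likelihood test, with p-values adjusted by Benjamini-Hochberg over all 4197, called 17 of them toward soleus and 12 toward TA (adjusted p under 0.05). Over all tested transcripts 12.4% were called higher in soleus and 13.1% higher in TA, 25.5% in all, so the members' 17 of 88 (19.3%) and 12 of 88 (13.6%) stood near the background. The median log2 fold change, soleus over TA, was 0.25 over the 88 members and -0.0076 over all transcripts. A filter on low counts let in 6 members through soleus libraries only, all of them called, and 5 through TA libraries only, of which 4 were called. The 6 were Myh6-206, Mettl21c-202, Mybpc1-203, Trio-209, Atf7ip-208 and Ppm1a-208. Called among the 5 were Tnnt3-227, Taf1d-203, Ldha-204 and Myom2-202. Members let in this way had to differ to be tested at all, so their adjusted p-values are not separate support for a difference. In whole muscle, fewer cells of a type and less RNA per cell cannot be told apart. Over these 9 libraries summed markers of tenocytes (6 of 6 listed) ran from 759 to 1025 CPM in soleus and from 151 to 673 in TA, with 296 in soleus female 2. Those of adipocytes (6 of 6 listed) ran from 3792 to 5854 CPM in soleus and from 675 to 3854 in TA, and overlapped. Car3, the gene of the muscle carbonic anhydrase, is on the adipocyte list and supplied most of that sum. Its protein-coding counts were 2829 to 4728 in soleus and 675 to 3388 in TA, so the sum need not show adipocytes. The endothelial (178 to 262 CPM, TA 235 to 792) and fibro-adipogenic sums (1619 to 11260 CPM, TA 373 to 5227) also overlapped. The part of these cell types in the results was not tested.

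Myh6-206, Mybpc1-203 and Mettl21c-202 had the largest called differences toward soleus, and all of them entered the test through soleus libraries only. Myh6-206, from the gene of the alpha cardiac myosin heavy chain (chr14:54943969-54944793, minus strand), had 11, 33, 47 and 19 counts in soleus and 0 in all 5 TA libraries. The muscles did not overlap. Taking 3 counts over all TA libraries as the floor, it was at least 52.5-fold higher in soleus (adjusted p = 0.00055). Of its 688 31-mers 212 also occur in another gene, so reads of a related myosin gene could be counted here. Mybpc1-203, from the gene of slow myosin-binding protein C, had 22, 17, 21 and 12 counts in soleus and 1, 1, 2, 3 and 0 in TA. Every soleus library was thus far above every TA library, with a log2 fold change of 3.67 (SE 0.45, adjusted p = 6.4e-05). The protein-coding transcripts of Mybpc1 rose less, from 171 to 511 counts in TA to 600 to 715 in soleus (log2 1.06, SE 0.24). Mettl21c-202, from the gene of a lysine methyltransferase of muscle, had 55, 43, 85 and 49 counts in soleus and 3, 4, 3, 0 and 0 in TA. Its log2 fold change was 4.90 (SE 0.43, adjusted p = 4.8e-06), and the protein-coding sum of the gene differed by 2.72 (SE 0.23).

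**Figure D2:**
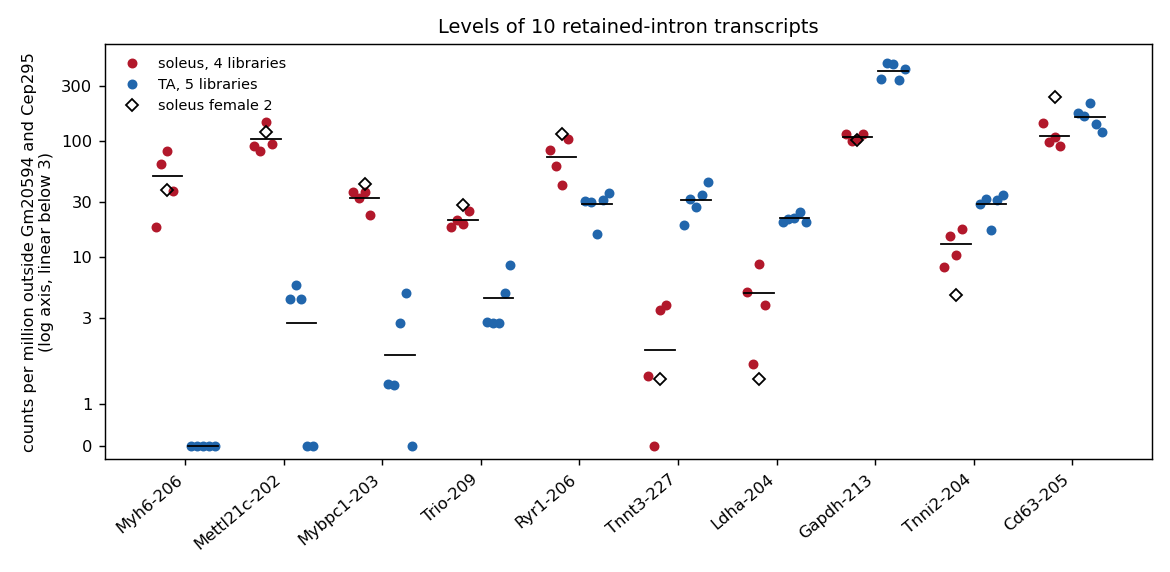
Levels of 10 retained-intron transcripts called between the muscles, in CPM outside Gm20594 and Cep295 on a log axis that is linear below 3. Circles are libraries, bars are means of the 4 soleus (red) and 5 TA (blue) libraries, and open diamonds are soleus female 2. Myh6-206 is at 0 in all TA libraries, and Gapdh-213 is the transcript with 207 to 330 counts in TA.

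Myh8-204, from the gene of the neonatal myosin heavy chain, went against the rest of its gene. It had 14, 14, 3 and 19 counts in soleus and 7, 3, 3, 10 and 10 in TA, which overlap, with a log2 fold change of 1.31 (SE 0.42, adjusted p = 0.038). The protein-coding Myh8 transcripts had 68, 161, 108 and 366 counts in soleus and 565 to 913 in TA (log2 -1.89, SE 0.33). Of the 4969 31-mers of Myh8-204, 837 also occur in another gene, so reads of another gene could be counted here. The call of Myh8-204 between the muscles was lost without soleus male 1, soleus male 2, soleus female 1, TA male 2, TA male 3 or TA female 2, each alone, with an adjusted p of up to 0.119.

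Tnnt3-227 and Tnni2-204, from genes of fast troponins, were higher in TA. Tnnt3-227, from the gene of fast troponin T, had 1, 0, 2 and 2 counts in soleus and 13, 22, 19, 21 and 31 in TA. No soleus library reached the lowest TA library, and the log2 fold change was -3.68 (SE 0.45, adjusted p = 6.9e-05). The protein-coding Tnnt3 transcripts that could be told apart were even between the muscles, with 89 to 150 counts in soleus and 125 to 176 in TA (log2 0.04, SE 0.18). The 23 protein-coding Tnnt3 transcripts together have only 113 31-mers of their own, so this sum need not show the level of the whole gene. The transcript took 0.969% of assignable Tnnt3 counts in soleus (exact 95% interval 0.315 to 2.25) and 12.9% in TA (10.7 to 15.3), where intervals cover counting error only. Its last exon is the stretch printed above, where coding bases of the variable front part of Tnnt3 run on past the GT. The transcript overlaps the span of Prr33 on the other strand, where a span covers exons and introns, and whether counting used strand was not given in the sources used here. A second transcript, Tnnt3-221, lies further along the gene and had 4, 3, 0 and 0 counts in soleus and 7, 11, 12, 2 and 4 in TA, too few for the first test. Tnni2-204, from the gene of fast troponin I, had 5, 8, 6 and 9 counts in soleus and 20, 22, 12, 19 and 24 in TA (log2 -1.21, SE 0.30, adjusted p = 0.0097). The protein-coding Tnni2 sum differed more (log2 -1.97, SE 0.19).

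The list of contractile and sarcomere genes held 50 listed members of 32 genes. Of 7 tested, 3 were higher in soleus and 3 higher in TA, and their median log2 fold change was 0.023. Myom2-202, from the gene of the M-band protein myomesin 2, was among the 3 higher in TA. It had 2, 2, 3 and 2 counts in soleus and 11, 9, 11, 16 and 11 in TA (log2 -2.07, SE 0.38, adjusted p = 0.0015), next to 502 to 773 and 3706 to 4089 protein-coding counts (log2 -2.39, SE 0.18). Transcript and gene thus differed by similar amounts. Myom2-202 passed the count filter in only 3 of the fits that left out 1 library, and was called in these. It was not tested with all 10 libraries or with the replicate number as a block.

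Among genes of calcium handling, Ryr1-206 was higher in soleus. Ryr1 is the calcium release channel of the sarcoplasmic reticulum. The transcript (chr7:29022099-29046683, minus strand) had 51, 32, 24 and 54 counts in soleus and 21, 21, 11, 19 and 25 in TA. Scaled to library size the muscles did not overlap, with a log2 fold change of 1.31 (SE 0.26, adjusted p = 0.0024). Protein-coding Ryr1 transcripts had 30 to 51 and 29 to 65 counts (log2 0.11, SE 0.24). Trdn-204, from the gene of triadin, which anchors the calcium store next to that channel, had 15, 9, 10 and 7 counts in soleus and 12, 15, 7, 4 and 3 in TA (log2 0.36, SE 0.35, adjusted p = 0.50). The list held 46 members, of which these 2 were tested.

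Gapdh-213 and Ldha-204, from genes of glycolysis, were higher in TA. Gapdh-213 is an unspliced run of 3289 bases over 4 introns of the glycolytic enzyme glyceraldehyde-3-phosphate dehydrogenase (chr6:125161715-125165003, minus strand). It had 70, 52, 60 and 59 counts in soleus and 236, 330, 323, 207 and 293 in TA. No values overlapped, and the log2 fold change was -2.03 (SE 0.17, adjusted p = 3.1e-06). The 6 protein-coding Gapdh transcripts have 470 31-mers of their own against 1636 for Gapdh-213, and together had 3 to 7 counts in soleus and 14 to 29 in TA (log2 -1.78, SE 0.35). The transcript therefore followed its gene, and its 92.3% and 93.1% of assignable counts do not measure how much Gapdh RNA is unspliced. Of its 3259 31-mers 1037 also occur in another gene, and it overlaps the span of Iffo1 on the other strand. Ldha-204, from the gene of the muscle form of lactate dehydrogenase, had 3, 1, 5 and 2 counts in soleus and 14, 15, 15, 15 and 14 in TA. Its log2 fold change was -2.20 (SE 0.37, adjusted p = 0.00084), beside -1.41 (SE 0.26) for the protein-coding sum. The glycolysis and glycogen list held 30 members, of which these 2 were tested. Summed over the list, members stood at 82.8 to 99.0 CPM in soleus and 281 to 427 in TA, and most of this was Gapdh-213 alone, since the list held 61 to 83 counts per library in soleus and 242 to 367 in TA.

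Other transcripts higher in soleus came from genes of signalling, chromatin and transport. Trio-209, from the gene of an activator of small GTPases, had 11, 11, 11 and 13 counts in soleus and 2, 2, 2, 3 and 6 in TA. Its soleus values were close together and did not overlap TA, with a log2 fold change of 2.21 (SE 0.34, adjusted p = 0.00038). Hectd2-205, from a ubiquitin ligase gene, had 24, 19, 15 and 18 counts in soleus and 1, 8, 2, 7 and 18 in TA (log2 1.79, SE 0.45, adjusted p = 0.012). Ift80-203, from a gene of transport in cilia, had 16, 15, 12 and 8 counts in soleus and 1, 0, 1, 3 and 13 in TA (log2 2.20, SE 0.64, adjusted p = 0.022). In Ift80-203 the library TA female 2 lay among the soleus values. Atf7ip-208, from a gene of chromatin silencing, and Zfp369-205, from a zinc-finger gene, differed by 1.53 (SE 0.43, adjusted p = 0.019) and 1.31 (SE 0.37, adjusted p = 0.020). The calls of Ift80-203, Atf7ip-208 and Zfp369-205 were lost when some single libraries were left out, with an adjusted p of up to 0.061 for Ift80-203 (soleus male 1, soleus male 2, TA male 1, TA male 2 or TA male 3). For Atf7ip-208 it reached 0.055 (soleus male 1 or TA male 3), and for Zfp369-205 0.084 (soleus male 1, soleus male 2, soleus female 1 or TA male 1).

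The 7 further transcripts called higher in soleus had smaller differences. Pikfyve-205, from the gene of a lipid kinase of endosomes, had 16, 20, 10 and 25 counts in soleus and 8, 5, 12, 7 and 11 in TA (log2 1.29, SE 0.33, adjusted p = 0.012). Ppm1a-208 (a protein phosphatase gene), St14-206 (a membrane protease gene), Kcnn3-202 (a potassium channel gene opened by calcium) and Bicd1-209 (a dynein adaptor gene) had log2 fold changes of 1.12, 1.04, 1.00 and 0.90. These 4 were named after their values were seen, to complete the count. Fgd4-205, from the gene of an activator of Cdc42, differed by 1.00 (SE 0.34, adjusted p = 0.047), and Hsp90ab1-203, from a chaperone gene, by 0.88 (SE 0.27, adjusted p = 0.027). All 7 lost the call without at least 1 library. Pikfyve-205 and Ppm1a-208 lost it without soleus female 1 (adjusted p 0.099 and 0.100), and Ppm1a-208 was not tested with all 10 libraries. St14-206 lost it without soleus male 1, soleus female 1 or TA male 3 (up to 0.0696), and Kcnn3-202 without soleus male 3, soleus female 1 or TA male 2 (up to 0.107). Bicd1-209 lost it without soleus male 1, male 2 or female 1 or TA male 2 (up to 0.0771), and with the replicate number as a block (0.0805). Hsp90ab1-203 lost it without soleus male 1, soleus female 1, TA male 2, TA male 3 or TA female 2 (up to 0.143) and with all 10 libraries (0.11). Fgd4-205 lost it without soleus male 1, male 2 or female 1 or TA male 1, male 2 or female 2 (up to 0.123), and with the block (0.0751).

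Further transcripts higher in TA came from genes of the proteasome, endosomes, chromosomes and translation. Psma7-206, from the gene of an alpha subunit of the proteasome, had 313, 189, 234 and 193 counts in soleus and 356, 400, 502, 317 and 336 in TA (log2 -0.59, SE 0.16, adjusted p = 0.015). Cd63-205, an unspliced run over 7 introns of a tetraspanin gene of endosomes, had 88, 51, 62 and 47 counts in soleus and 122, 115, 149, 86 and 84 in TA (log2 -0.74, SE 0.17, adjusted p = 0.0068). In both, the highest soleus library overlapped the lowest TA libraries after scaling to library size. Cenpa-208, from the gene of the centromeric histone, had 460, 239, 249 and 149 counts in soleus and 568, 566, 700, 237 and 222 in TA (log2 -0.68, SE 0.20, adjusted p = 0.022). Eif4a1-202, from the gene of a helicase of translation initiation, had 59, 24, 42 and 43 counts in soleus and 67, 71, 87, 76 and 118 in TA (log2 -0.76, SE 0.21, adjusted p = 0.018). Ncapd2-203, from a condensin gene, had 64, 20, 26 and 12 counts in soleus and 78, 65, 67, 21 and 32 in TA (log2 -0.81, SE 0.28, adjusted p = 0.048). Part of it overlaps the snoRNA gene Scarna10 on the same strand. With soleus female 2 included, Cd63-205, Cenpa-208, Eif4a1-202 and Ncapd2-203 were no longer called (adjusted p 0.52, 0.062, 0.36 and 0.45). The call of Psma7-206 was lost without soleus male 2 or TA male 3 (up to 0.0632), that of Cenpa-208 without soleus male 2, soleus male 3 or TA male 3 (up to 0.0867), and that of Eif4a1-202 without soleus male 2, soleus female 1 or TA male 3 (up to 0.0759). Ncapd2-203 kept its call only without soleus male 1 or TA female 1 (otherwise up to 0.142).

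Rabep2-204 and Taf1d-203, also higher in TA, overlap the span of another gene on the other strand. Rabep2-204, from a gene of endosome fusion, had 12, 10, 5 and 11 counts in soleus and 18, 18, 22, 24 and 31 in TA (log2 -0.97, SE 0.27, adjusted p = 0.017). It overlaps the span of Atp2a1, the calcium pump of fast fibres. Neither of the 2 protein-coding Rabep2 transcripts was listed, and they have 0 31-mers of their own. Its call was lost without soleus female 1 (adjusted p = 0.0663). Taf1d-203, from the gene of a factor of ribosomal RNA transcription, had 4, 2, 0 and 1 counts in soleus and 19, 15, 12, 9 and 8 in TA (log2 -2.72, SE 0.50, adjusted p = 0.0015). It overlaps the span of Cep295 on the other strand and holds 5 snoRNA genes, and with soleus female 2, which had 11 counts, the call was lost (adjusted p = 0.072). Taf1d-203 was tested in only 4 of the fits that left out 1 library, and not with the block. Without a stated use of strand in the counting, reads of both genes at these places cannot be told apart.

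Some calls between the muscles also depended on the fit. Without the sex covariate the adjusted p rose to 0.313 for Cenpa-208, 0.374 for Ncapd2-203, 0.127 for Myh8-204, 0.123 for Fgd4-205, 0.0527 for Cd63-205 and 0.0521 for Psma7-206. With the Wald test of DESeq2, Ncapd2-203, Fgd4-205, Hsp90ab1-203, Bicd1-209 and St14-206 were not called (adjusted p 0.0510 to 0.0856), and with DESeq2 size factors Ncapd2-203 was not (0.0514). Without a filter on low counts Rabep2-204, Fgd4-205, Hsp90ab1-203, Bicd1-209, Kcnn3-202, St14-206 and Ppm1a-208 were not called (0.0557 to 0.264).

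The second comparison set each transcript against the summed protein-coding counts of its own gene in the same library. A change of the whole gene cancels only as far as these assignable counts follow it. Of 234 members tested 11 took a larger part in soleus (4.70%) and 6 in TA (2.56%). Over all 378 transcripts tested, which include 2 further non-coding kinds, 3.97% were called higher in soleus and 2.12% higher in TA, 6.08% in all. The members make up most of these 378, and of the 144 transcripts of the other kinds 6 were called (4.17%), beside 17 of 234 members (7.26%). The median log2 difference was 0.13 over members and 0.14 over all. Among the 29 members called between the muscles, 18 could be set against a tested protein-coding sum. That sum was called the same way for 7, the opposite way for 2 (Myh8-204 and Fgd4-205) and was not called for 9. Calls of both comparisons were shared by 7 members. Without soleus female 1, 10 members were called against their gene in place of 17.

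**Figure D3:**
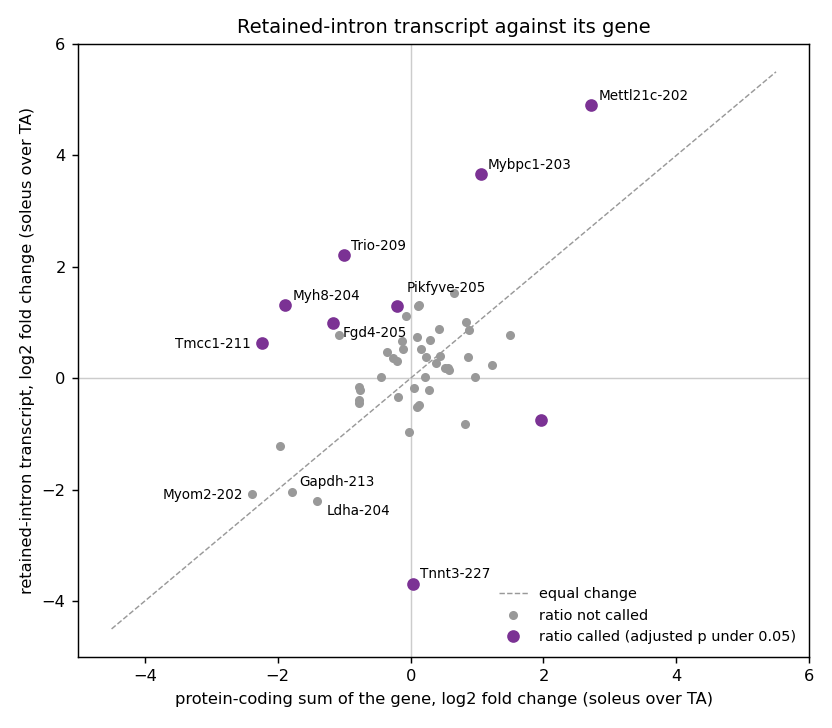
Log2 fold change of 52 retained-intron transcripts (vertical) against that of the summed protein-coding transcripts of their gene (horizontal), soleus over TA, for members tested in both comparisons. The dashed line marks equal change, and purple points were called against their gene. Tnnt3-227 lies at -3.68 with the assignable protein-coding sum of its gene near 0, and Gapdh-213 and Myom2-202 lie close to the line.

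Of these calls 6 belong to transcripts described above as higher in soleus, and their values are log2 differences of the ratio to the coding sum, soleus over TA. They were 3.05 for Myh8-204 (SE 0.45, adjusted p = 4.9e-06), 2.61 for Mybpc1-203 (SE 0.48, adjusted p = 0.00013) and 2.16 for Mettl21c-202 (SE 0.53, adjusted p = 0.0048). Trio-209 differed by 3.51 (SE 0.82, adjusted p = 0.0032), Fgd4-205 by 2.13 (SE 0.50, adjusted p = 0.0032) and Pikfyve-205 by 1.47 (SE 0.42, adjusted p = 0.024). The value of Trio-209 rests on 7 coding counts in soleus and 21 in TA, a sum not called between the muscles (edgeR adjusted p = 0.33). Mettl21c-202 took 35.2% of assignable counts of its gene in soleus and 10.5% in TA. The calls of Mettl21c-202 and Trio-209 were lost without soleus female 1 (adjusted p 0.0833 and 0.0774), and that of Pikfyve-205 without soleus male 2, soleus female 1, TA male 1 or TA female 2 (up to 0.210). Pikfyve-205 was also lost without the sex covariate (0.0517), with limma (0.117) and with a minimum of 10 counts (0.0612), and Fgd4-205 with limma (0.0542).

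In 4 genes besides Myh8 the protein-coding sum was higher in TA while the retained-intron transcript was not. Tmcc1-211, from a gene of the endoplasmic reticulum, had 17, 20, 16 and 18 counts in soleus and 14, 11, 18, 4 and 17 in TA, beside 5 to 7 and 26 to 42 protein-coding counts (ratio 2.89, SE 0.48, adjusted p = 3e-05). Of its 2667 31-mers, 834 also occur in another gene, and the processed pseudogene Gm8203 lies inside it on the other strand. Reads of other genes could thus be counted on Tmcc1-211. Mkln1-205, from the gene of muskelin, had 8, 8, 3 and 4 counts in soleus and 1, 2, 3, 2 and 1 in TA, beside 10 to 27 and 45 to 62 (ratio 3.20, SE 0.65, adjusted p = 0.00061). Rrm1-204, from the gene of the large subunit of ribonucleotide reductase, had 6, 14, 3 and 5 counts in soleus and 5, 1, 3, 3 and 4 in TA, beside 6 to 12 and 22 to 35 (ratio 2.55, SE 0.62, adjusted p = 0.0048). The fourth is Fgd4-205, with 15, 24, 12 and 25 counts in soleus and 7, 5, 15, 18 and 15 in TA, beside 6 to 11 and 14 to 30. Of the 3683 31-mers of Fgd4-205, 1471 also occur in another gene, so reads of another gene could be counted on it. The call of Rrm1-204 was lost without soleus male 2 (adjusted p = 0.0647).

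In 2 further genes the protein-coding sum was not called between the muscles. Nf1-205, from the gene of the Ras inhibitor neurofibromin, had 6, 11, 4 and 3 counts in soleus and 1 count in all TA libraries together, which makes soleus 34.3 times TA (exact 95% limits from counting error 5.6 and 1413). Protein-coding Nf1 transcripts had 0 to 8 and 4 to 10 counts, and the ratio differed by 4.69 (SE 1.09, adjusted p = 0.0032). Nf1-205 entered this test through its soleus counts, so this p-value is not separate support for a difference. Maip1-202, from a gene of the inner mitochondrial membrane, had 7, 10, 4 and 4 counts in soleus and 1, 3, 3, 1 and 2 in TA (ratio 2.05, SE 0.60, adjusted p = 0.028) and was named after its values were seen. It overlaps the span of Tyw5 on the other strand, and its call was lost without soleus male 2, soleus female 1 or TA male 1 (up to 0.0907) and with a minimum of 10 counts (0.0759).

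Of the 6 transcripts with a larger part in TA, 5 are described here. Tpm3-207, from the gene of slow tropomyosin, had 4, 8, 7 and 4 counts in soleus and 0, 0, 0, 2 and 2 in TA, while the protein-coding sum had 1487 to 2038 and 0 to 5. The ratio differed by -7.04 (SE 1.27, adjusted p = 0.00012), so the retained-intron counts were higher in soleus too, by far less than the coding ones. It rests on 10 coding counts in TA and was lost without soleus female 1 (adjusted p = 0.933). Lpl-202, from the gene of lipoprotein lipase, had 8 to 12 counts in soleus and 5 to 7 in TA beside 1561 to 1951 and 399 to 491 coding counts (ratio -1.41, SE 0.37, adjusted p = 0.011). Rpl6-207, from a ribosomal protein gene, had 3, 3, 4 and 3 counts in soleus and 10, 4, 7, 18 and 8 in TA (ratio -2.22, SE 0.65, adjusted p = 0.028). Both Tnnt3 transcripts were among them, Tnnt3-227 (ratio -3.73, SE 0.56, adjusted p = 6.2e-06) and Tnnt3-221 (ratio -1.99, SE 0.62, adjusted p = 0.045). With all 10 libraries Lpl-202, Rpl6-207 and Tnnt3-221 were not called (adjusted p 0.46, 0.29 and 0.21), and Tnnt3-221 was also lost with the replicate number as a block (0.0605). The calls of Rpl6-207 (limma 0.0542, at least 10 counts 0.0612), Lpl-202 (at least 10 counts 0.0612) and Tnnt3-221 (no sex covariate 0.145, at least 10 counts 0.0924) were lost in other fits too. Single libraries also ended the calls of Lpl-202 (soleus female 1 or TA male 1, up to 0.0774) and Rpl6-207 (soleus male 1, soleus female 1, TA male 1 or TA female 1, up to 0.128). For Tnnt3-221 they were soleus male 2, male 3 or female 1 and TA male 2, male 3 or female 2 (up to 0.135).

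Genes of splicing factors, known for intron retention, gave few testable members. Splicing and RNA-binding factors had 129 listed members in 48 genes, and the members of each library summed to 80.9 to 126 CPM in soleus and 109 to 168 in TA. None of the 129 passed the filter for the first comparison, and of 7 tested against their gene edgeR called 0, with 2 at an unadjusted p under 0.05, and limma on log2 ratios also called 0. For genes of mitochondria and fat use 94 members were listed. Slc25a4-202, from the gene of the ADP/ATP carrier of muscle, was the 1 tested, with 21, 18, 20 and 15 counts in soleus and 19, 22, 17, 14 and 8 in TA (log2 0.31, SE 0.25, adjusted p = 0.41). For protein turnover and stress 62 members were listed and 4 tested, of which Hsp90ab1-203 was higher in soleus and Psma7-206 in TA. Psmc2-202, from the gene of a proteasome ATPase, had 17, 22, 9 and 10 counts in soleus and 7, 13, 12, 13 and 11 in TA (adjusted p = 0.29).

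Several of the members with the most counts hold a snoRNA gene. One lies inside an exon on the same strand in 3 of the 15 members with a mean of at least 50 counts, in 5 of 72 with a mean of at least 10 (6.94%), in 40 of 9117 listed (0.439%) and in 108 of 21841 annotated without Cep295 (0.494%). These shares are a description, and the files do not say where in a transcript a read fell. Rps3-204 carries Snord15b, Rpl5-204 carries Snord21, Rpl10-209 carries Snora70 and Hspa8-208 carries Snord14c, Snord14d and Snord14e. The first 2 are printed in capitals with 20 bases of host intron on each side (chr7:99479543-99479727, minus strand, and chr5:107904535-107904668, plus strand, GRCm38).
Rps3-204 with Snord15b: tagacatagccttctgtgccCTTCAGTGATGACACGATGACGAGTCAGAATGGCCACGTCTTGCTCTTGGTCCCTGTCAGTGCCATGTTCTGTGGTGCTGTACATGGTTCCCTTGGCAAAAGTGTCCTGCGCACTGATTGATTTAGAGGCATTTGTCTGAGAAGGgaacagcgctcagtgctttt
Rpl5-204 with Snord21: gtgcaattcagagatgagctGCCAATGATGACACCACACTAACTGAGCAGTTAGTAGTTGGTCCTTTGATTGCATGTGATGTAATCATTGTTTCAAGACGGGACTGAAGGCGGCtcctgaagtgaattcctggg
Of the ribosome and translation genes 137 members were listed and 5 tested, with Eif4a1-202, which holds the snoRNA gene Gm22988, the only call. Rps3-204 had 302, 336, 325 and 333 counts in soleus and 340, 248, 260, 382 and 546 in TA (log2 0.18, SE 0.16, adjusted p = 0.45). Rpl5-204 had 30, 23, 29 and 29 counts in soleus and 38, 34, 40, 68 and 58 in TA (log2 -0.47, SE 0.18, adjusted p = 0.078). Both were thus uncalled, and Rpl10-209 was too, with 6 to 11 counts in soleus and 10 to 20 in TA (adjusted p = 0.27).

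Among the 10 members with the highest mean count, which is not scaled to length, were Cenpa-208, Rps3-204, Psma7-206, C2cd5-216, Gapdh-213, Cchcr1-203, Tulp3-206, Ptcd3-207 and Acad9-206. Cenpa had 0 to 3 protein-coding counts in every library beside 149 to 700 on Cenpa-208. Cchcr1-203, from the gene of a coiled-coil protein, had 273, 127, 114 and 80 counts in soleus and 224, 156, 288, 139 and 112 in TA (log2 -0.28, SE 0.25, adjusted p = 0.46). Its spread within a muscle was larger than the difference between muscles.

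Members also differed by the sex and number of the library. The term for sex in the same fit, looked at after the data were seen, called 3 of 88 members higher in females and 5 higher in males, where 1.29% and 1.22% of all tested transcripts were called, 2.5% in all. The term rests on 3 female and 6 male libraries. Soleus and TA libraries of the same sex and number were entered as separate, and if the number marks the mouse these are 2 female and 3 male mice and the p-values for sex are too small. Cenpa-208 was lower in females (log2 for sex -1.30, SE 0.22, adjusted p = 0.012). C2cd5-216, from a gene of membrane traffic of the glucose carrier, had 247, 117, 145 and 95 counts in soleus and 332, 269, 330, 115 and 97 in TA (log2 for sex -1.28, SE 0.25, adjusted p = 0.021). Between the muscles it was not called (log2 -0.49, adjusted p = 0.13), but with the replicate number as a block it was higher in TA (log2 -0.64, adjusted p = 0.010), as it was without soleus female 1 or TA female 2 (0.039 and 0.048). Tulp3-206, from a gene of ciliary traffic, had 184, 77, 104 and 59 counts in soleus and 191, 182, 215, 90 and 87 in TA (log2 for sex -1.12, SE 0.23, adjusted p = 0.024). Between the muscles its adjusted p was 0.10 with 9 libraries, 0.021 with the block (log2 -0.59) and 0.023 without soleus male 1. Ncapd2-203 was also higher in males (log2 for sex -1.50, SE 0.31). Higher in females were Usp4-203 (a deubiquitinase gene), Hspa8-208 (a chaperone gene) and Ermard-211, with log2 values of 1.76, 1.20 and 1.18. These last 3 are outside the naming rule and were chosen after their values were seen.

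In Acad9-206 and Ptcd3-207, soleus and TA libraries of the same sex and number had similar counts. Acad9-206, from the gene of an assembly factor of respiratory complex I, had 9, 50, 110 and 217 counts in soleus and 4, 76, 134, 212 and 96 in TA, with 99 in soleus female 2. Ptcd3-207, from the gene of a mitochondrial ribosome protein, had 3, 57, 128 and 272 counts in soleus and 0, 28, 92, 258 and 139 in TA, with 69 in soleus female 2. In both transcripts male 1 was lowest and female 1 highest in each muscle. Neither was called between the muscles without pairing (adjusted p 0.90 and 0.51). Scaled to library size, Ptcd3-207 was higher in soleus in 4 of 4 same-numbered pairs, and with the number as a block it was called (log2 0.64, adjusted p = 0.033). It was also called without a filter on low counts (adjusted p = 0.0077). Acad9-206 was higher in soleus in 2 of 4 pairs and was not called with the block (log2 -0.0028, adjusted p = 0.99).

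**Figure D4:**
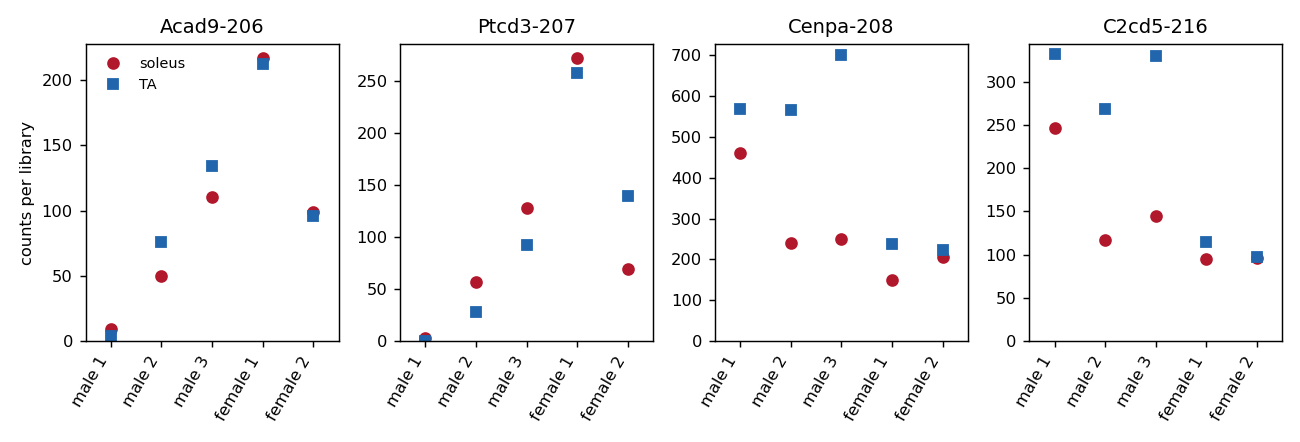
Counts per library of 4 members by sex and replicate number, soleus (circles) and TA (squares). Acad9-206 and Ptcd3-207 run from 0 to 9 counts in male 1 to 212 to 272 in female 1 in both muscles, and Cenpa-208 and C2cd5-216 are lower in the TA libraries of both females than in those of the males.

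Soleus female 2 had more counts on retained introns than any other library. They took 3.54% of its counts outside Gm20594 and Cep295 and 11.2% of the counts of genes with both kinds. It listed 5111 members, and at the common depth 4612 against 1865 to 2518 in the others. A further 1180 of the 9117 members were listed in this library alone. Among 163 members with at least 20 counts over the other 4 soleus libraries, its level was a median of 2.11 times their mean, beside 0.941 times for 4863 protein-coding transcripts. It stood above all 4 in 103 of these members (63.2%) and in 26.0% of the protein-coding transcripts. The excess was not particular to members, since processed transcripts, a further non-coding kind, had a median of 1.74 and processed pseudogenes 1.28, while transcripts marked for nonsense-mediated decay had 0.974. These differences come from 1 library and were not tested.

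**Figure D5:**
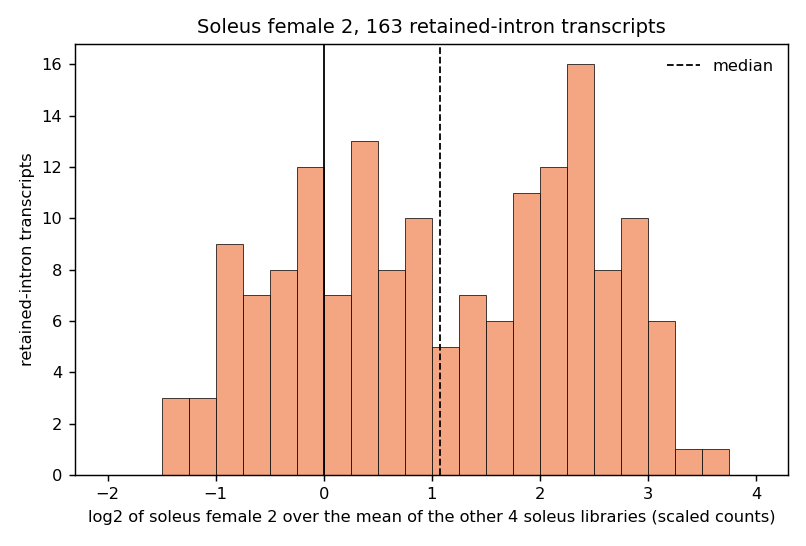
Distribution over 163 retained-intron transcripts of the log2 ratio of soleus female 2 to the mean of the other 4 soleus libraries, after scaling to library size. The solid line marks equal levels and the dashed line the median, a ratio of 2.11. The right part of the distribution holds 54 transcripts over 4 times the mean of the others.

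The excess was uneven among members. Myh8-204 was highest, with 172 counts against 3 to 19 in the other soleus libraries, a ratio of 13.1, followed by Myh7-202 from the slow myosin gene, with 56 against 2 to 7 (ratio 10.7). Car3-202, from the gene of the muscle carbonic anhydrase, had 143 counts against 13 to 18 (ratio 8.70), and Lpl-202 had 74 against 8 to 12 (ratio 7.55). These 4 lay far outside the range of the other soleus libraries, and Myh7-202 and Car3-202 were named after their values were seen. Others lay within that range, and Gapdh-213 had 65 counts against 52 to 70, Mettl21c-202 76 against 43 to 85 and Tnnt3-227 1 against 0 to 2. The coding counts of Car3 and Myh8 lay within the range of the other soleus libraries, at 4164 against 2829 to 4728 and at 80 against 68 to 366. Those of Lpl lay above it, at 2136 against 1561 to 1951, and those of Myh7 are not reported here.

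Annotated retained-intron transcripts with more sequence of their own were listed more often in every library, and soleus female 2 lay above the others in each range of that measure. Of the 2541 annotated with 1001 to 2000 31-mers of their own, 48.6% were listed in soleus female 2, against 19.5% to 27.0% in the other soleus libraries and 21.1% to 24.6% in TA. Counts on olfactory and vomeronasal receptor genes, whose proteins serve the sense of smell, were 6120 in this library against 988 to 1432 in the other soleus libraries and 855 to 1281 in TA. Its summed markers were low for fibro-adipogenic cells (200 CPM against 1619 to 11260 in the other soleus libraries), tenocytes (296 against 759 to 1025) and macrophages (236 against 545 to 903). It is labelled female and had 0 counts on Ddx3y, and 92 on Kdm5d against 6 to 23 in the other 9 libraries, males included. The part of these measures in the result was not tested.

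Its inclusion moved the balance of calls. In the fit of all 10 libraries 83 members were tested, of which 20 were called toward soleus and 6 toward TA, where 12.9% and 12.9% of all tested transcripts were called, 25.8% in all. Of the 29 members called with 9 libraries, 21 were called with 10. Of the 17 members called higher in soleus without it, 9 were over 2 times higher in soleus female 2 than in the other soleus libraries, and so were 4 of the 12 called higher in TA and 19 of the 59 not called. Against the gene, 14 members were higher in soleus and 2 in TA with 10 libraries (background 2.89% and 0.542%, 3.44% in all), and 13 of the 17 calls were shared.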

How the data were processed

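RNA of 10 muscle samples was made into libraries from 10 ng of total RNA with the Takara SMART-Seq Stranded kit, called a Tag-Seq preparation in the labels. The deposited values are whole-number counts per Ensembl transcript, 1 table per library, listing only transcripts with at least 1 count. Per the submitters' processing notes bcl2fastq, Trimmomatic 0.32, FastQC and the build GRCm38.p4 were used. The aligner, the counter and any use of strand are not given in the sources used here. Of 40414 listed identifiers 40359 matched GENCODE M21, and 55 were left out. Libraries held 726075 to 961237 matched counts, which limits most members to a few counts each.

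From the counts, edgeR 4.0.16 (quasi-likelihood test, TMM scaling, filterByExpr by tissue, sex as a covariate, R 4.3.3) compared soleus with TA over all transcripts, with Benjamini-Hochberg adjustment and a threshold of 0.05. Fold changes are log2, soleus over TA, and SE is the log2 fold change divided by the root of the test's F value. A second edgeR fit took each retained-intron, nonsense-mediated decay or processed transcript and the protein-coding sum of its gene as 2 features per library, with the library as a block, where each had at least 20 counts over the libraries fitted. Tools run as alternatives were limma 3.58.1 and DESeq2 1.42.0. Shares of counts were compared by exact two-sided permutation over libraries (scipy 1.17.1). Counting intervals are exact at 95%, the floor is 3 counts, and both cover counting error only. Shared and own 31-mers were found in the GENCODE M21 transcripts, and sequences were read from those through their exon coordinates in GRCm38. Both fits were tested on simulated data that had the same spread for every transcript and no difference of sex or mouse. For the first fit, changes were placed only in transcripts with a mean of at least 10 counts, which most members do not reach. The recovery below therefore does not hold for members with fewer counts. The first recovered 65 of 100 transcripts changed 2-fold and 100 of 100 changed 4-fold, with 13 false calls among 4051 transcripts. The second recovered 18 of 20 changed 4-fold and 20 of 20 changed 8-fold, with 3 false calls among 395.

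Members and gene lists were chosen with earlier results of these data known. Named members were the 10 with the largest called differences in each direction, the 10 with the smallest p against their gene in each direction, the 10 of highest mean count and up to 3 per list, and others are marked as chosen after their values were seen. Members of genes known only by a model number were counted and not named, and a few members that the rule names are not reported here. Deviations from the group means, across transcripts, correlated at 0.308, 0.216 and 0.298 between the muscles for the same number in males and at 0.275 in females (equal in both pairs by construction), every one over 0.1, so the number was taken to pair the libraries and a fit with it as a block was run.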

Additional observations from a re-analysis of the deposited data

Results flagged for a closer look

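Within 84 groups of 4 or 5 libraries examined, 10 held a library whose gap to its nearest neighbour was large for the range of the group by Dixon's criterion, where chance gives about 1 in 20. Soleus female 2 stood apart on 3 measures over all members. Retained-intron transcripts took 3.54% of its counts outside Gm20594 and Cep295, against 1.13% to 1.48% in the other soleus libraries. They took 11.2% of the counts of genes with both transcript kinds, and 5111 members were listed.

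The other 7 concern single transcripts. Soleus male 3 stood apart with 85 counts on Mettl21c-202 (others 43 to 55), 11 on Zfp369-205 and 5 on Rabep2-204 (others 10 to 12). TA female 2 had 13 counts on Ift80-203, where the other TA libraries had 0 to 3. TA male 3 had 11 counts on Ryr1-206 (others 19 to 25), and TA female 1 had 16 on Myom2-202 (others 9 to 11). The single TA count on Nf1-205 was in TA female 1, with 1 count.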

How the results depend on the processing

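With all counts as the denominator the difference in the retained-intron share was -0.014 percentage points (exact permutation p = 0.762), opposite in direction to 0.086 and likewise past no threshold. Within genes the difference was 1.08 with all 10 libraries, and the median share over 661 genes was 0 in both muscles. Leaving out each library in turn gave 0.0323 to 0.148 for the first and -0.490 to -0.0995 for the second. Without a filter on low counts 57 members were called between the muscles (34 higher in soleus and 23 in TA), 22 of them among the 29. Leaving out 1 library gave 20 to 30 calls between the muscles and 10 to 19 against the gene. With all 10 libraries 76.9% of the called members were higher in soleus, against 58.6%. Over all alternatives run, no called transcript changed direction. Other settings gave 20 to 28 calls between the muscles (no sex covariate, DESeq2 size factors or Wald test, a mean of at least 10 counts, library sizes without the 2 genes) and 14 to 19 against the gene (no sex covariate, limma, at least 50 or 10 counts).

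With the replicate number as a block, over the 8 libraries that form pairs, 29 members were called between the muscles, 24 of them among the 29 above, and 17 against the gene, 16 of them among the 17. The same 8 libraries without the block, a comparison chosen after seeing the data, gave 24 and 16. Apart from the calls of Bicd1-209, Fgd4-205 and Tnnt3-221 given in the report, the block ended no call of a named transcript it could test, and C2cd5-216, Tulp3-206 and Ptcd3-207, not called with 9 libraries, were called with it. Acad9-206, uncalled throughout at a log2 of 0.16, was at -0.0028 with the block, at -0.074 in the same 8 libraries without it, and at -0.24 to 0.71 with 1 library left out. The paired exact permutation tests of the shares gave p = 0.375 for all counts and 0.62 within genes, and cannot go below 0.125. At these depths a member with a few counts per library shows only large differences.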

Other observations

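Mpp7-202, from the gene of a membrane scaffold protein, had 0, 1, 2 and 103 counts in the 4 soleus libraries, 206 in soleus female 2, and 2, 3, 0, 121 and 263 in TA. All 4 female libraries thus lay at 103 or above and the 6 male libraries at 3 or below, in both muscles alike. If the number marks the mouse, these are 2 female and 3 male mice, and the muscles of a mouse are not independent. Mpp7-202 was chosen after its values were seen and had too few libraries with counts per muscle to be tested.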
